A study of Mus musculus with 4 samples.

Results

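The 5 genes described here follow interleukin-10 from its source to its response: Il10, which encodes the cytokine, Il10ra and Il10rb, the receptor chains, Stat3, the transcription factor the receptor switches on, and Socs3, a feedback gene of that factor. They were chosen by name, as 5 of the 32285 genes measured, and were counted as unique molecular identifiers (UMIs, tags that count single RNA molecules) in single CD45+ cells, the leukocytes, of healthy mouse liver. The mice were C57BL/6 animals with PA-GFP, a fluorescent protein that light switches on, and all samples had photoactivation as their treatment, so that cells could be taken by position. Of the 4 libraries, 2 held cells of the portal vein (PV) zone and 2 held cells of the central vein (CV) zone. The labels give neither the age of the mice nor whether each library came from its own animal, so the spread behind the p-values is that between libraries and may be technical.

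Interleukin-10 restrains inflammation. Macrophages and regulatory T cells are among its known producers, and in the liver Kupffer cells, the resident macrophages of the sinusoids, have long been described as one source. The cytokine binds the chain encoded by Il10ra, which is specific to it, and then recruits the chain encoded by Il10rb, which is shared with other cytokines of the family such as interleukin-22. The kinases JAK1 and TYK2 on these chains phosphorylate STAT3. STAT3 is also used by interleukin-6 and by granulocyte colony-stimulating factor (G-CSF), and SOCS3 blocks the receptors of those cytokines, so that neither Stat3 nor Socs3 reads interleukin-10 alone.

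A barcode counted as a cell if it had 200 or more detected genes and no more than 10% of its UMIs from mitochondrial genes. In all, 282 of 1939 distinct barcodes appeared in more than 1 library, 152 of them in all 4, and each was kept only in the library with at least 70% of its UMIs. How the shared barcodes arose was not tested. This left 333 cells in PV replicate 1, 512 in PV replicate 2, 372 in CV replicate 1 and 376 in CV replicate 2, with library medians of 5369 to 6317.5 UMIs per cell. Cells were named by gates on marker genes, and 1505 of 1593 cells fell into a leukocyte class, while 21 barcodes with markers of a second lineage were set apart as mixed. Kupffer cells were those with at least 3 of Clec4f, Vsig4, Timd4, Cd5l, C6, Folr2 and Fcna. The shared barcodes bear most on PV replicate 1, which kept 4 Kupffer cells, against 69 with all its barcodes. PV replicate 2 kept 117 Kupffer cells, and the CV replicates kept 52 and 41. Ptprc, which encodes CD45, had a UMI in 1496 cells.

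Il10 lies on chromosome 1 at 131019845 to 131024974 (plus strand, GRCm38, GENCODE vM21). It was found in 26 of the 1593 cells, which held 170 UMIs in all. Kupffer cells were 21 of these 26 cells, and they held 147 of the UMIs, or 86.5%. Of the others, 1 was a macrophage outside the Kupffer gate with 2 UMIs, 1 was a T cell with 4 UMIs, and 3 were mixed barcodes with 17 UMIs together. Each of the 4 libraries held at least 1 Kupffer cell with Il10, so the source did not rest on 1 library.

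Few Kupffer cells carried the transcript, and a handful carried most of it. In PV replicate 1, 1 of 4 Kupffer cells had Il10, and in PV replicate 2, 8 of 117. In CV replicate 1, 9 of 52 Kupffer cells had Il10, and in CV replicate 2, 3 of 41. Over all libraries the share was 9.81% (95% Wilson interval 6.51% to 14.5%, counting error only) at a median of 6736.5 UMIs per cell. It was lower under other treatments of the cells: 5.46% (10 of 183) after each cell was thinned to 2000 UMIs, and 5.85% (23 of 393) with shared barcodes kept in each library, where PV replicate 1 had Il10 in 3 of 69. T cells, at a median of 6183 UMIs, had Il10 in 1 of 726 cells. Cells with at least 10 UMIs numbered 7, and they held 129 of the 170 UMIs (75.9%). The cell with the most, a Kupffer cell of CV replicate 1, had 41 UMIs, 24.1% of all. At the other end, 9 cells had 1 UMI each. The barcodes of 19 of the 26 cells occurred in 1 library only.

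**Figure D1:**
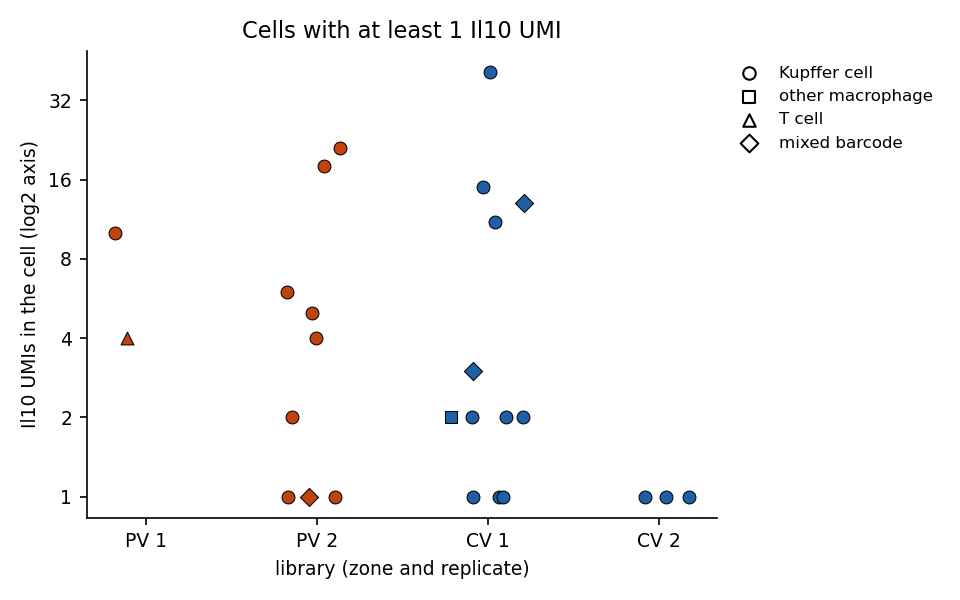
Il10 UMIs in each cell that had at least 1 (y axis, log2 scale), by library (x axis, PV libraries in red, CV libraries in blue), with the shape giving the marker gate. Kupffer cells are 21 of the 26 points, the highest has 41 UMIs in CV replicate 1, and all 3 points of CV replicate 2 sit at 1 UMI.

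Summed over the class, Il10 made up 65.9 and 54.4 CPM (counts per 1000000 UMIs of the class in that library) in macrophages of PV replicates 1 and 2. The values in macrophages of CV replicates 1 and 2 were 163 and 7.20 CPM. The other gated leukocytes had 1.60 CPM in PV replicate 1 and 0 in the other 3 libraries. Macrophages were thus higher in 4 of 4 libraries, although their own level spanned a wide range between the CV replicates. The value of PV replicate 1 came from 1 cell with 10 UMIs, and that of CV replicate 2 from 3 UMIs. Macrophages outside the Kupffer gate had 29.0 CPM in CV replicate 1 and 0 in the other 3 libraries. They were below their own other gated cells, Kupffer cells among them, in each library. The log2 fold change of macrophages over the other cells was 6.97 ± 0.57 (SE, adjusted p = 1.88e-06, edgeR quasi-likelihood test with the library as a block). Without the cell with 41 UMIs, an alternative added after its value was seen, CV replicate 1 stood at 79.0 CPM and the log2 fold change was 6.53 ± 0.58 (adjusted p = 4.06e-06). The list of 8 T cell markers summed to 14.6 to 26.4 CPM in macrophages, against 5697 to 6307 CPM in T cells. Markers of cells outside the leukocytes were higher in macrophages: 7 hepatocyte markers summed to 138 to 488 CPM, 6 sinusoidal endothelial markers to 59.3 to 238 CPM and 4 platelet markers to 96.0 to 376 CPM. Their part in the Il10 values was not tested. With every shared barcode kept in each library the log2 fold change was 6.80 ± 0.54 (adjusted p = 5.60e-07). Genes that differ between macrophages and the rest were many: 46.3% of 9931 tested genes passed in either direction, 22.8% of all tested as higher and 23.6% as lower, against 3 of the 5 genes described here, all higher.

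Outside macrophages and T cells, 0 of 512 gated leukocytes had an Il10 UMI, which allows a share of cells with a UMI of up to 0.586% and sets no limit on the share of cells that express it. With a floor of 3 UMIs over the class, Il10 was at least 8.70-fold lower in cDC1, the cross-presenting dendritic cells (0 UMIs in 82 cells), than in the other gated cells (15.9 CPM). The bound was at least 3.04-fold lower in B cells (155 cells) and at least 2.21-fold lower in natural killer (NK) cells or ILC1 (96 cells). In neutrophils, with 86 cells of shallow depth, it was at least 1.28-fold lower. The floor there was 10.9 CPM, near the 13.9 CPM of the other cells, so a level only somewhat below theirs could have gone undetected. In each bound the other gated cells included macrophages, which held 149 of the 153 Il10 UMIs of gated leukocytes. The bounds are thus against a level set by macrophages. They also leaned on CV replicate 1, and without it they were 4.56-fold in cDC1 and 1.43-fold in B cells. In NK cells or ILC1 and in neutrophils the floor was then above the level of the other cells and gave no bound. The T cell with Il10, in PV replicate 1, also had 12 UMIs of Foxp3, the factor that defines regulatory T cells, and 29 of Ctla4, another marker of theirs. Foxp3 was seen in 5 of the 726 T cells, and this was the only one of the 5 with Il10. In T cells as a class Il10 stood at 2.95 CPM in PV replicate 1 and 0 in the other 3 libraries. The other gated cells had 7.76 and 24.1 CPM in PV replicates 1 and 2 and 59.8 and 2.14 CPM in CV replicates 1 and 2. The log2 fold change was -4.57 ± 0.72 (adjusted p = 0.000298, edgeR). All 149 Il10 UMIs of those other cells were in macrophages, and gated leukocytes outside both classes had 0. The T cell value is thus the macrophage result seen from the other side, and sets T cells below no class but macrophages.

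Among Kupffer cells, those with Il10 did not lack the receptor. Of the 21 cells with Il10, 14 had an Il10ra UMI and 19 an Il10rb UMI, against 105 and 146 of the 193 Kupffer cells without Il10, at median depths of 8473 and 6609 UMIs. Stat3 was seen in 7 and Socs3 in 6 of the 21, against 76 and 20 of the 193. The cells were picked by their own Il10 count, so these are descriptions. When cells were clustered by expression, 12 of the 21 cells and 128 of their 147 UMIs fell into the shallower of the main pair of Kupffer clusters (median 3118.5 UMIs over the cluster). The deeper one (median 9030.5 UMIs) had 8 cells with 18 UMIs. In the shallower cluster, Kupffer cells with Il10 had a median of 5186.5 UMIs and those without it 2469. Its leading genes began with Il10, Clu, Ahsg, Hmox1 and Alb, a hepatocyte marker. Il10 was not left out of the clustering, so its place there is a description only. The hepatocyte markers summed to 372 CPM in Kupffer cells with Il10 and 478 CPM in those without it, and the endothelial markers to 97.1 and 198 CPM. Marco, which encodes a scavenger receptor, was present in 123 of the 214 Kupffer cells. Il10 was found in 13 of the 123 cells with Marco and in 8 of the 91 without it, holding 101 and 46 UMIs. The shares with and without Marco were 3 of 58 and 5 of 59 in PV replicate 2. They were 8 of 43 and 1 of 9 in CV replicate 1, and 1 of 18 and 2 of 23 in CV replicate 2. In PV replicate 1 all 4 Kupffer cells had Marco, 1 of them with Il10.

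Il10ra, on chromosome 9 at 45253837 to 45269149 (minus strand), was highest in macrophages and cDC2 and lowest in T cells. Macrophages outside the Kupffer gate had 157 and 170 CPM in the PV replicates and 334 and 328 CPM in the CV replicates. Kupffer cells had 173 CPM in PV replicate 2 and 110 and 165 CPM in the CV replicates; the 4 cells of PV replicate 1 had 2 UMIs. T cells had 26.5 and 22.4 CPM in the PV replicates and 29.6 and 18.4 CPM in the CV replicates. The T cell range lay below every macrophage value.

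In the order of class means, macrophages outside the Kupffer gate had 247 ± 96.9 CPM of Il10ra (SD, n = 4 libraries). Next came cDC2, the dendritic cells that prime helper T cells, with 151 ± 46.0 CPM (n = 2, both PV), and Kupffer cells with 149 ± 34.3 CPM (n = 3). Neutrophils stood at 106 ± 57.0 CPM, cDC1 at 63.3 ± 14.8 CPM and B cells at 50.1 ± 34.3 CPM (n = 4 each). NK cells or ILC1 had 40.2 ± 11.98 CPM (n = 3) and T cells 24.2 ± 4.88 CPM (n = 4). Each of these neighbours overlapped the next in its range over libraries, except that every NK cell or ILC1 value was above every T cell value. The pDC, the interferon-producing dendritic cells, had 131 CPM in PV replicate 2, the 1 library with at least 10 of them.

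Against the other gated cells of the same libraries, Il10ra was higher in macrophages by a log2 fold change of 1.64 ± 0.21 (adjusted p = 6.87e-05). Macrophages outside the Kupffer gate showed 1.75 ± 0.32 (adjusted p = 0.000123), in a comparison where 14.0% of genes passed, 5.77% as higher and 8.26% as lower. T cells were lower, at -2.13 ± 0.18 (adjusted p = 2.71e-06), beside 47.7% of genes that passed and 27.6% that passed as lower. The values for cDC1 (0.22 ± 0.26), neutrophils (0.35 ± 0.41) and B cells (-0.32 ± 0.30) did not pass. The direction and the call held for all 3 of the classes that passed under every alternative run.

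Il10rb lies on chromosome 16 at 91406164 to 91425834 (plus strand). Kupffer cells had 265 CPM in PV replicate 2 and 261 and 226 CPM in the CV replicates. Their mean was 251 ± 21.5 CPM (n = 3). Macrophages outside the gate followed with 221 ± 105 CPM, neutrophils with 165 ± 51.8 CPM and NK cells or ILC1 with 148 ± 41.3 CPM (n = 3). T cells had 80.0 ± 7.92 CPM, cDC2 57.4 ± 33.2 CPM (n = 2), cDC1 48.7 ± 11.3 CPM and B cells 44.0 ± 21.8 CPM. The pDC of PV replicate 2 had 142 CPM. Neighbours in this order overlapped in range, except that each NK cell or ILC1 value lay above the T cell values.

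The class comparison put Il10rb higher in macrophages by a log2 fold change of 1.44 ± 0.17 (adjusted p = 3.92e-05). It was lower in cDC1 (-1.0 ± 0.21, adjusted p = 0.00159), where 31.5% of genes passed and 18.5% passed as lower, and in B cells (-1.23 ± 0.29, adjusted p = 0.000305), where the shares were 28.1% and 19.6%. These 3 calls held under every alternative run. In macrophages outside the Kupffer gate the value was 0.88 ± 0.30 (adjusted p = 0.0422) and in T cells -0.61 ± 0.21 (adjusted p = 0.0326). Both of these were lost without single libraries: the adjusted p was 0.0528 to 0.278 in the macrophage class in each of the 4 cases, and 0.168, 0.188 and 0.0720 in T cells without PV replicate 2, CV replicate 1 and CV replicate 2. Neutrophils (0.26 ± 0.36) did not pass. Macrophages held 521 of the 825 Il10rb UMIs of the cells set against T cells. The T cell mean was above those of cDC2, cDC1 and B cells, and a T cell comparison without macrophages was not run.

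**Figure D2:**
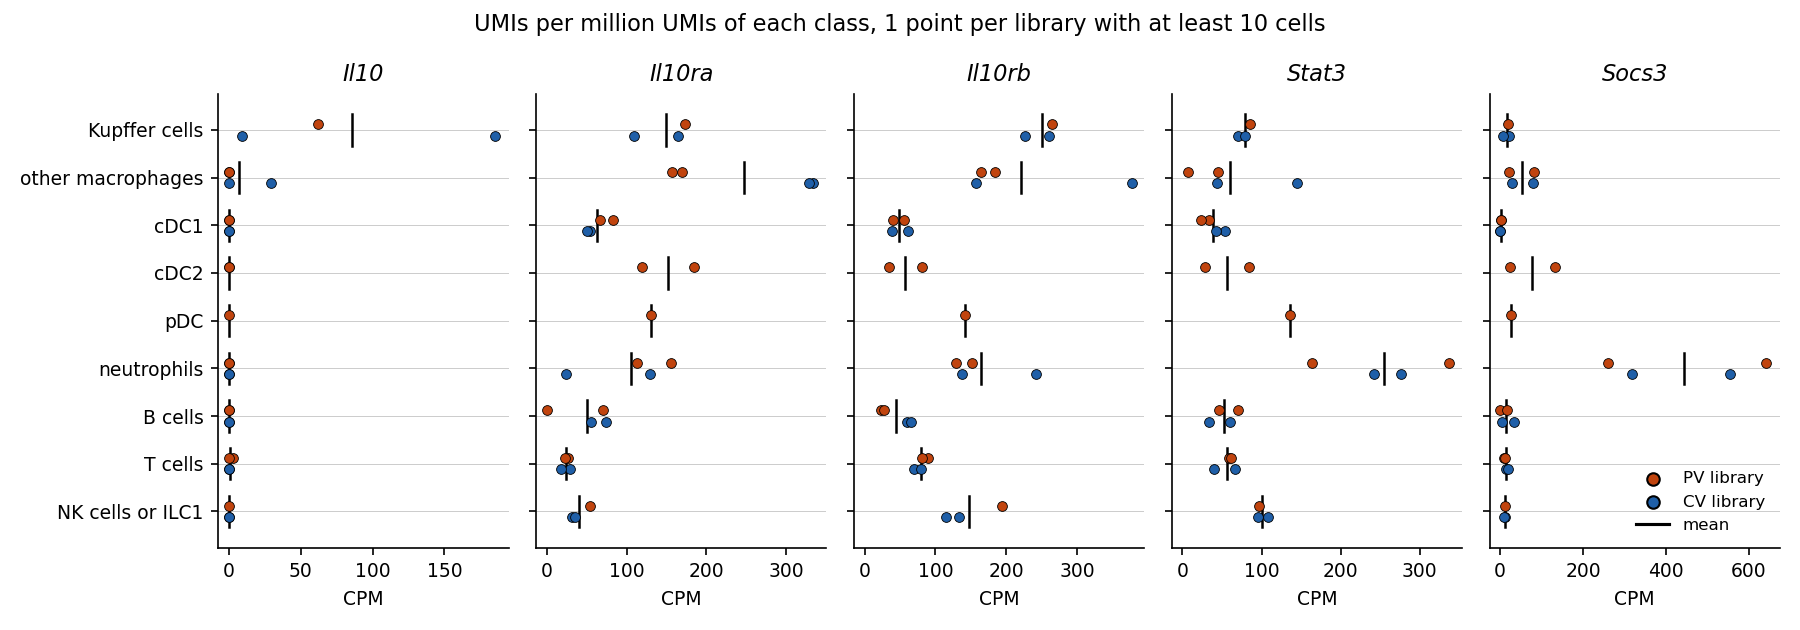
Level of each of the 5 genes (x axis, CPM, with a scale of its own per gene) in 9 marker-gated classes (y axis); each point is a library with at least 10 cells of the class (PV red, CV blue) and the black line is their mean. Il10 has values above 0 in Kupffer cells, in 1 library of other macrophages and in 1 of T cells, Il10ra and Il10rb lean to the macrophage rows, and Socs3 stands far to the right in neutrophils.

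At the unequal depths of the classes, both chains were counted together in single cells at the highest shares in macrophages and dendritic cells. Kupffer cells had UMIs of both in 101 of 214 cells (47.2%, Wilson interval 40.6% to 53.9%), and macrophages outside the gate in 26 of 53. T cells had both in 32 of 726 cells (4.41%, 3.14% to 6.16%), B cells in 3 of 155 and NK cells or ILC1 in 4 of 96. A further 255 T cells had Il10rb without Il10ra. Neutrophils had both in 9 of 86 cells at a median of 3131 UMIs. The dendritic cells, with both in 36 of 82 cDC1, 17 of 38 cDC2 and 13 of 33 pDC, were deeper, with medians of 21606, 12978 and 9828 UMIs. After each cell was thinned to 2000 UMIs, both chains were found in 10.96% of 228 macrophages, 6.17% of 81 neutrophils, 2.63% of 38 cDC2, 2.44% of 82 cDC1, 0.422% of 711 T cells and 0.680% of 147 B cells. In the 33 pDC they were then found in none, which allows up to 9.09%, and at equal depth cDC1 stood below macrophages, in the same order as the class sums.

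**Figure D3:**
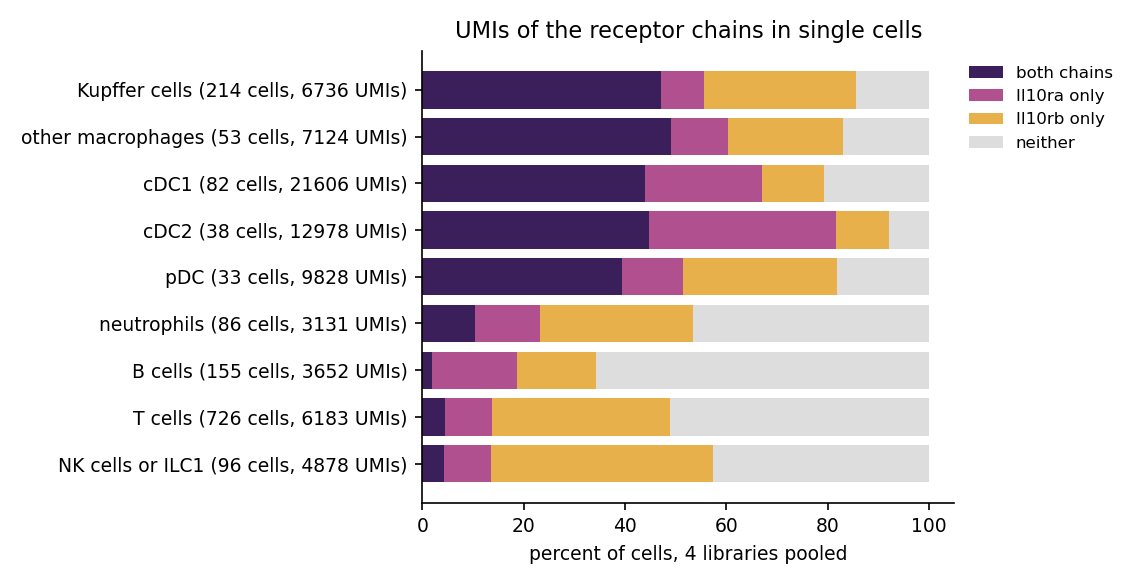
Share of cells (x axis, percent, 4 libraries pooled) with UMIs of both receptor chains, of 1 chain or of neither, by class (y axis, with the number of cells and their median UMIs). Both chains are found in 47.2% of Kupffer cells and 4.41% of T cells; depth differs between classes, with 21606 UMIs in cDC1.

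Stat3, on chromosome 11 at 100885098 to 100939540 (minus strand), was more even across classes than the receptor chains. Neutrophils were the exception, with 164 and 337 CPM in the PV replicates and 276 and 242 CPM in the CV replicates. The other gated cells of the same libraries had 49.9 and 70.9 CPM in the PV libraries and 65.8 and 53.9 CPM in the CV libraries, so that the neutrophil value was higher in 4 of 4 libraries. The log2 fold change was 1.65 ± 0.35 (adjusted p = 1.73e-05), and the call held under every alternative run. The neutrophil comparison called 51.5% of genes, 9.37% as higher and 42.2% as lower, and the median gene stood at a log2 fold change of -1.64; relative to that median Stat3 was higher still.

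In Kupffer cells Stat3 had 85.9 CPM in PV replicate 2 and 70.8 and 79.3 CPM in the CV replicates. All macrophages together had 46.1 and 76.0 CPM in the PV libraries and 66.9 and 91.2 CPM in the CV libraries, against 53.7 and 72.7 CPM in the PV libraries and 78.7 and 50.3 CPM in the CV libraries in the other cells. The class was higher in 2 of 4 libraries, and the log2 fold change of -0.01 ± 0.22 (adjusted p = 0.989) changed sign between alternatives. T cells had 56.5 ± 11.99 CPM, NK cells or ILC1 100 ± 6.71 CPM (n = 3), B cells 52.8 ± 16.1 CPM and cDC1 38.5 ± 12.5 CPM. Macrophages outside the Kupffer gate had 60.1 ± 58.9 CPM, cDC2 56.4 ± 39.8 CPM (n = 2) and the pDC of PV replicate 2 had 136 CPM. Every neutrophil value lay above those of the other classes, NK cells or ILC1 (lowest 95.3 CPM) lay above Kupffer cells (highest 85.9 CPM), and further down the order of means neighbours overlapped. The values for cDC1 (-0.65 ± 0.25, adjusted p = 0.0571) and T cells (-0.38 ± 0.16, adjusted p = 0.0789) did not pass, although cDC1 were lower in 4 of 4 libraries.

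Socs3, on chromosome 11 at 117966079 to 117970047 (minus strand), had the widest range of levels between the neutrophils and the rest. Neutrophils had 642 and 259 CPM in the PV replicates and 319 and 556 CPM in the CV replicates. The other gated cells had 8.57 and 25.1 CPM in the PV libraries and 14.5 and 13.6 CPM in the CV libraries. The lowest neutrophil value was thus above the highest of the others, with a log2 fold change of 4.48 ± 0.36 (adjusted p = 2.40e-33), positive and past the test in every alternative run. The transcript was spread over cells: 39 of 86 neutrophils had it (45.3%, Wilson interval 35.3% to 55.8%) at a median of 3131 UMIs, with 121 UMIs in all and 11 at most in 1 cell. Thinned to 2000 UMIs, 38.3% of neutrophils had Socs3, against 5.26% of macrophages and 2.67% of T cells.

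Macrophages, the class with Il10 and both receptor chains, had much less Socs3 than neutrophils. They had 26.4 and 26.3 CPM in the PV libraries and 23.0 and 19.2 CPM in the CV libraries, against 27.7 and 28.0 CPM in the PV libraries and 31.5 and 23.0 CPM in the CV libraries in the other gated cells. The log2 fold change was -0.38 ± 0.25 (adjusted p = 0.234); with Leiden clusters in place of gates it was -0.84 (adjusted p = 0.0314). Neutrophils held 121 of the 251 Socs3 UMIs of those other cells. With neutrophils left out, an alternative added after the values were seen, the others had 7.46 and 24.6 CPM in the PV libraries and 12.2 and 12.5 CPM in the CV libraries, below macrophages in each library, and the log2 fold change was 0.45 ± 0.34 (adjusted p = 0.297), so that the direction turned and neither value passed. Within them, Kupffer cells had 15.4 ± 8.43 CPM (n = 3) and macrophages outside the gate 52.9 ± 31.5 CPM (n = 4). In that smaller class the values were 22.5 and 81.2 CPM in PV replicates 1 and 2 and 29.0 and 78.8 CPM in CV replicates 1 and 2, from 2 to 11 UMIs each, so that replicate 2 was the higher one in both zones.

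Socs3 was almost absent from cDC1, with 2.84 and 2.40 CPM in the PV libraries and 0 UMIs in both CV replicates, against 36.6 and 30.6 CPM in the PV libraries and 33.5 and 24.9 CPM in the CV libraries in the other cells. The log2 fold change was -3.87 ± 0.54 (adjusted p = 6.00e-05). T cells were lower than the sum of the other cells, with 8.85 and 12.7 CPM in the PV libraries and 13.8 and 18.4 CPM in the CV libraries, against 47.3 and 35.7 CPM in the PV libraries and 42.1 and 25.7 CPM in the CV libraries (log2 fold change -1.55 ± 0.30, adjusted p = 0.00121). Neutrophils are among the others in those comparisons. With them left out the value in cDC1 was -2.90 ± 0.66 (adjusted p = 0.00387), and in T cells it was -0.28 ± 0.35 (adjusted p = 0.545) and no longer passed. The value in cDC2 of PV replicate 2, 132 CPM, came from 36 UMIs, of which 16 were in 1 cell. B cells had 13.6 ± 14.9 CPM (n = 4), NK cells or ILC1 11.2 ± 1.36 CPM (n = 3) and the pDC of PV replicate 2 27.2 CPM. In the order of means, from neutrophils through cDC2 (77.5 ± 77.6 CPM, n = 2), macrophages outside the gate, Kupffer cells, B cells, T cells and NK cells or ILC1 to cDC1, neighbours overlapped except at 3 steps. Neutrophils lay above cDC2, macrophages outside the gate (lowest 22.5 CPM) above Kupffer cells (highest 21.97 CPM), and NK cells or ILC1 above cDC1.

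**Figure D4:**
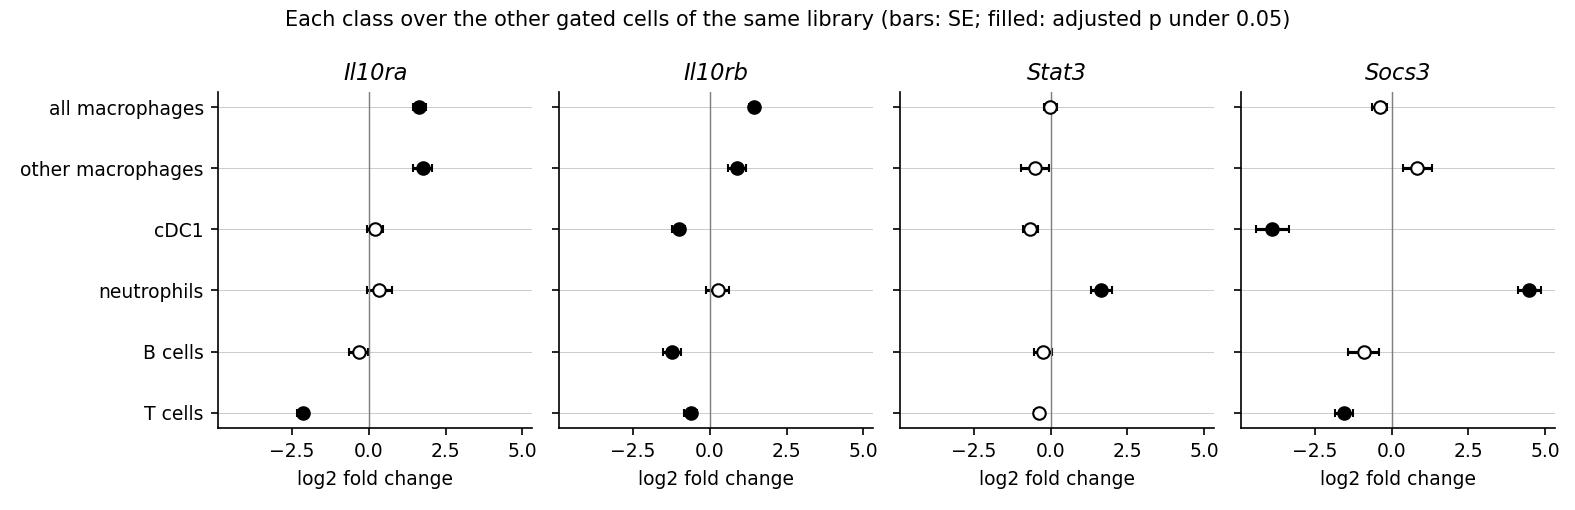
Log2 fold change of each class over the other gated cells of the same libraries (x axis; bars are standard errors; filled points have an adjusted p under 0.05) for 4 genes, by class (y axis). Il10ra and Il10rb are higher in macrophages, at 1.64 and 1.44, Stat3 and Socs3 are higher in neutrophils, at 1.65 and 4.48, and Socs3 is lower in cDC1, at -3.87.

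Of 15 tested genes known to respond to interleukin-10 in macrophages, 8 were higher and 1 lower in macrophages in the same class comparison. Of all genes tested, 22.8% were higher and 23.6% lower. The median log2 fold change of the list was 0.81, beside -0.07 over all genes tested. Fcgr1, an Fc receptor, was higher by 7.23 ± 0.39 (adjusted p = 7.99e-08). Cd163, the haemoglobin scavenger receptor, was higher by 6.80 ± 0.39 (adjusted p = 1.24e-07), with 32.9 and 847 CPM in the PV libraries and 738 and 478 CPM in the CV libraries. PV replicate 1, where Kupffer cells made up 21.1% of macrophages, was the low one, against 88.0% in PV replicate 2 and 81.3% and 80.4% in the CV replicates. Hmox1, which breaks down haem, was higher by 7.06 ± 0.43 (adjusted p = 2.09e-07). Several of these genes also mark macrophages in general.

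Among 11 tested cytokines and enzymes that interleukin-10 is known to restrain, 4 were higher and 3 lower in macrophages, beside 22.8% and 23.6% of all genes, to which the share of lower ones was close. Il1a was higher by a log2 fold change of 5.67 ± 0.46 (adjusted p = 1.80e-06) and Il6 by 6.23 ± 0.57 (adjusted p = 8.26e-06); Il6 had 119 macrophage UMIs, none of them in PV replicate 1, against 4 in the other cells. Il12b, a subunit of interleukin-12, had 0 UMIs in macrophages and 272 in the other cells. The other members of the interleukin-10 family and their receptors, 10 genes, were all too low to test.

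The factors known to act on Il10 had 2 higher and 4 lower of 10 in macrophages, beside the same 22.8% and 23.6%. Maf, an activator of Il10 in macrophages and T cells, was higher by 2.64 ± 0.21 (adjusted p = 1.38e-06), with 652 and 1105 CPM in the PV libraries and 1249 and 1347 CPM in the CV libraries, against 139 and 126 CPM in the PV libraries and 234 and 129 CPM in the CV libraries in the other cells. Cebpb was higher by 1.88 ± 0.18 (adjusted p = 5.75e-06). Ets1 was lower by a log2 fold change of -4.22 ± 0.25 (adjusted p = 1.55e-07) and Bhlhe40, a repressor of Il10 in T cells, of -1.08 ± 0.24 (adjusted p = 0.00283). Il10 itself was seen in few of these cells, whereas Maf had 2436 macrophage UMIs.

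Of the kinases and other STATs, 2 were higher and 2 lower of 8 in macrophages, close to the 22.8% and 23.6% of all genes, and the counts of the next 2 lists are read against the same shares. Jak1, the kinase on the Il10ra chain, was lower by a log2 fold change of -0.91 ± 0.17 (adjusted p = 0.00104), Jak2 by -1.65 ± 0.21 (adjusted p = 6.33e-05), and Stat2 was higher by 1.57 ± 0.29 (adjusted p = 0.00103). Among 9 tested receptors and cytokines that signal through STAT3, 3 were higher and 3 lower. Il6ra, the interleukin-6 receptor, was higher by 2.02 ± 0.21 (adjusted p = 1.16e-05), and Il27ra had 0 UMIs in macrophages against 506 in the other cells. The SOCS genes other than Socs3 had 2 higher and 4 lower of 10: Socs1 was lower by a log2 fold change of -2.68 ± 0.28 (adjusted p = 1.28e-05), Socs2 of -3.66 ± 0.39 (adjusted p = 1.65e-05) and Cish of -3.77 ± 0.67 (adjusted p = 0.000737).

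Neutrophils, the class with most Socs3, also had the receptor of G-CSF, and any link of this receptor to Socs3 was not tested. Csf3r was higher there by a log2 fold change of 7.48 ± 0.36 (adjusted p = 1.34e-93), with 2292 and 2435 CPM in the PV libraries and 1809 and 1956 CPM in the CV libraries. Osm, a cytokine of the interleukin-6 family, was higher by 7.18 ± 0.39 (adjusted p = 1.60e-74). Of the 8 tested receptors and cytokines that use STAT3, 3 were higher and 3 lower in neutrophils, beside 9.37% and 42.2% of all genes. Socs1, Socs2, Cish and Socs5 had 0 UMIs in all neutrophils and were called lower, while none of the 10 other SOCS genes and brakes was higher. The count of 4 of 10 is close to the 42.2% of all genes called lower in neutrophils. A floor of 3 UMIs over the class is 10.9 CPM in neutrophils. Socs5 had 7.79 to 15.9 CPM in the other cells, near that floor, so its 0 sets almost no limit.

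Of the genes that interleukin-10 is known to restrain, 7 of 12 tested were higher in neutrophils and 1 was lower, beside the 9.37% of all genes called higher. Cxcl2, a neutrophil attractant, was higher by 8.16 ± 0.27 (adjusted p = 4.50e-190), Ptgs2, which makes prostaglandins, by 7.89 ± 0.37 (adjusted p = 1.18e-96), and Il1b by 5.60 ± 0.27 (adjusted p = 5.99e-95). Of 14 response genes of macrophages, 8 were higher in neutrophils and 4 lower, beside 9.37% and 42.2% of all genes. Il1rn, the interleukin-1 receptor antagonist, was higher by 5.92 ± 0.38 (adjusted p = 4.36e-52), and Zfp36, which destabilises cytokine mRNA, by 3.61 ± 0.27 (adjusted p = 2.18e-38). The T cell, Kupffer cell and B cell marker lists summed to at most 121 CPM in neutrophils, and the neutrophil list to at least 123048 CPM.

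Other SOCS genes were higher in T cells. Socs2 was higher there by a log2 fold change of 2.87 ± 0.16 (adjusted p = 6.15e-08), Socs1 by 2.51 ± 0.21 (adjusted p = 2.33e-06) and Cish by 2.47 ± 0.26 (adjusted p = 1.43e-05), and 4 of 10 in that list were higher and 1 lower. Jak1 was higher by 1.01 ± 0.13 (adjusted p = 6.38e-05). Of the macrophage response genes, 0 of 14 were higher and 10 lower in T cells, beside 20.1% and 27.6% of all genes. In cDC1, where Socs3 was almost absent, 5 of the 10 SOCS genes and brakes were lower and 0 higher, beside 18.5% of all genes called lower there, and 8 of 10 factors that act on Il10 were lower, Maf by a log2 fold change of -5.47 ± 0.29 (adjusted p = 3.22e-09).

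Between the zones, no member passed a test. The PV over CV comparison was run in all kept cells, in T cells and, added after the cell numbers were seen, in macrophages; 0 of 10502, 0 of 7973 and 0 of 5635 genes passed (0%), and 230, 231 and 110 had an unadjusted p under 0.05 in edgeR. DESeq2 called 9, 0 and 2 genes. Fewer cells of a class and less RNA per cell cannot be told apart in the sums over all cells. In PV replicate 1 the macrophage sum held 19 cells, mostly outside the Kupffer gate, and the part this played in the macrophage values was not tested.

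In macrophages, Il10 averaged 60.1 ± 8.13 CPM in the PV libraries and 85.1 ± 110 CPM in the CV libraries (SD, n = 2 each), and both PV values lay between the CV values of 163 and 7.20 CPM. The log2 fold change of PV over CV was -0.57 ± 0.95 (adjusted p = 0.999996). Without CV replicate 1 it was 3.07 and without the cell with 41 UMIs 0.41, neither past the test. Il10ra averaged 162 ± 14.8 CPM in the PV libraries and 168 ± 37.0 CPM in the CV libraries (log2 fold change 0.02 ± 0.31), and Il10rb 216 ± 54.6 CPM in the PV libraries and 246 ± 45.4 CPM in the CV libraries (-0.11 ± 0.33). Stat3 averaged 61.0 ± 21.1 CPM in the PV libraries and 79.0 ± 17.2 CPM in the CV libraries (-0.22 ± 0.36), and Socs3 26.3 ± 0.07 CPM in the PV libraries and 21.1 ± 2.67 CPM in the CV libraries (0.32 ± 0.49). Only Socs3 had PV and CV macrophage values that did not overlap. With n = 2 libraries a zone this is no sign of a zone difference by itself, and the share of all genes without overlap was not computed.

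In T cells no zone value passed either. Il10ra averaged 24.5 ± 2.92 CPM in the PV libraries and 24.0 ± 7.92 CPM in the CV libraries (log2 fold change 0.00 ± 0.30), Il10rb 85.3 ± 5.50 CPM in the PV libraries and 74.7 ± 6.77 CPM in the CV libraries (0.14 ± 0.18), and Stat3 59.8 ± 2.14 CPM in the PV libraries and 53.2 ± 19.6 CPM in the CV libraries (0.14 ± 0.25). The T cell values of Il10rb did not overlap, with 89.2 and 81.5 CPM in the PV libraries and 69.96 and 79.5 CPM in the CV libraries. With so few libraries, such a lack of overlap is no sign of a zone difference by itself. Socs3 averaged 10.8 ± 2.73 CPM in the PV libraries and 16.1 ± 3.22 CPM in the CV libraries, with both PV values below both CV values, and its log2 fold change of -0.62 ± 0.40 (adjusted p = 0.99997) did not pass. On simulated counts the T cell comparison recovered 52.2% of 2-fold changes and 89.6% of 4-fold changes, and the macrophage comparison 16.4% and 74.6%. The recovery of such changes in the 5 genes described here was not tested. Their standard errors in the macrophage comparison ran from 0.31 for Il10ra to 0.95 for Il10.

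**Figure D5:**
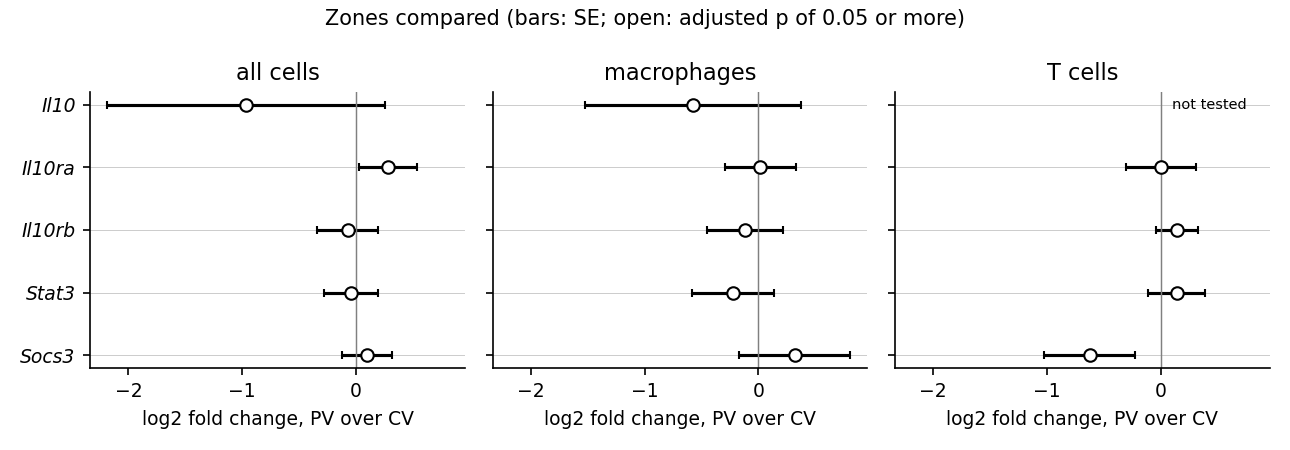
Log2 fold change of PV over CV (x axis; bars are standard errors; open points did not pass the test) for the 5 genes (y axis) in all kept cells, macrophages and T cells. All points are open; Il10 has the widest bars, and Il10 in T cells was too low to test.

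Classes with fewer cells had no zone test. Of those with at least 10 cells in each library, 3 had receptor values that did not overlap between zones. In macrophages outside the Kupffer gate Il10ra was 157 and 170 CPM in the PV libraries and 334 and 328 CPM in the CV libraries, from 21 to 25 UMIs each. In B cells Il10rb was 23.4 and 27.1 CPM in the PV libraries and 60.4 and 65.1 CPM in the CV libraries, and in cDC1 Il10ra was 82.5 and 67.2 CPM in the PV libraries and 53.6 and 49.99 CPM in the CV libraries. Beyond the receptor chains, Stat3 in cDC1 did not overlap either, at 34.1 and 24.0 CPM in the PV libraries and 53.6 and 42.3 CPM in the CV libraries. Nor did Socs3 in cDC1, at 2.84 and 2.40 CPM in the PV libraries and 0 in the CV libraries. Whether a class differed from the other cells more in PV than in CV was tested in each of the 6 classes. The unadjusted p was 0.0338 for Il10ra in macrophages outside the gate, 0.0497 for Il10rb in B cells and 0.274 for Il10ra in cDC1, and the adjusted p was 0.960 to 1 for every member in every class. With 2 libraries a zone, an exact permutation test of a single value cannot go below p = 0.3333. A lack of overlap is therefore no sign of a zone difference by itself, here or in the macrophage and T cell values above. The share of all genes without overlap was not computed.

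The genes whose levels ran most like each member were ranked by Pearson correlation of log2(CPM + 20) over 29 sums of 9 classes, among 9703 genes that were not gate markers. The sums share libraries, and the values are descriptions. For Il10 they were R74862 (r = 0.94), Scamp5 (0.91) and Marco (0.91), the first 2 with 65 and 69 UMIs in all. For Il10ra they were Cd300c2 (0.81), Fosb (0.79) and Skil (0.79), and for Il10rb Timp2 (0.89), Arrb2 (0.82) and Rhob (0.82). For Stat3 they were Mark2, Prr13 and Carhsp1 (each 0.82), and for Socs3 Ptgs2 (0.93), Gm15832 (0.92) and Slc7a11 (0.92).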

How the data were processed

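Droplet libraries were 10x Chromium Next GEM 3′ v3.1, per the labels' protocols. Counting used Cell Ranger 4.0.0 on mm10, per the submitters' processing notes. The deposited values are raw UMI counts per gene and barcode, with 2741760 to 4373488 UMIs per library. The sources used here do not give the annotation or the cell-calling settings. Symbols matched 32158 of 32285 identifiers.

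The members, gene lists and marker lists were chosen with earlier results of these data known. A cell took the class with the largest share of its markers detected, with at least 3 markers of a list of 8. Ties stayed ungated, and cells with at least 50% of the markers of a second leukocyte lineage were called mixed. The macrophage lists were an exception. A cell led by either list was named a Kupffer cell if it had at least 3 Kupffer markers, and ties between them were not left ungated. Of 1505 gated leukocytes, 1431 lay in a Leiden cluster of the same name. Scrublet (scanpy 1.11.5) called 14 doublets, 8 of them mixed, which were left in except as an alternative. Counts were summed per library and class and tested with edgeR 4.0.16 (R 4.3.3; quasi-likelihood test, TMM, filterByExpr, Benjamini-Hochberg adjustment over all genes at 0.05). Classes were compared with the other gated cells with the library as a block, if at least 10 cells were present in each library. Zones were compared without a block where each library had at least 20 cells (T cells, all cells) and, added later, at least 15 (macrophages). DESeq2 1.42.0 was the other tool. For each gene, the deviation of a library from the mean of its zone was compared between same-numbered libraries. These deviations correlated at -0.05, 0.14 and 0.05 in all cells, T cells and macrophages, so the numbers were not taken as pairs. The deposited files number the second library of each zone 3 where the titles number it 2; the titles were followed. Replicates differed beyond sampling noise (chi-square per degree of freedom 2.65 in PV and 3.01 in CV, T cells). Up to 4 genes per list and class that passed were eligible to be named, by smallest p. A count of 0 allows up to 3 counts; floors and 95% Wilson intervals cover counting error only. Sequences of the members are not used here.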

Additional observations from a re-analysis of the deposited data

Results flagged for a closer look

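Socs3 had zone values that pointed opposite ways in the 2 large classes. Macrophages had 26.4 and 26.3 CPM in the PV libraries and 23.0 and 19.2 CPM in the CV libraries, and T cells had 8.85 and 12.7 CPM in the PV libraries and 13.8 and 18.4 CPM in the CV libraries. Both PV values were above both CV values in macrophages and below them in T cells, which is what drew attention to it. The difference between the zone effects, macrophages minus T cells, was 0.78 ± 0.73 on the log2 scale (adjusted p = 1, edgeR, fitted over 9258 genes of which 0 passed and 228 had an unadjusted p under 0.05). The difference therefore did not pass a test.

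The 21 mixed barcodes, which entered no comparison, held 17 Il10 UMIs in 3 barcodes. There was 1 UMI in PV replicate 2, and 13 and 3 UMIs in CV replicate 1. These barcodes had 6 or 7 of the 7 Kupffer markers together with 7 or 8 of the 8 T cell markers, at 10743 to 17729 UMIs, and scrublet called 1 of the 3 a doublet. Whether the Il10 UMIs came from a Kupffer cell or a T cell in such a barcode was not tested.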

How the results depend on the processing

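Of 721 values recomputed under the alternatives, 644 kept their direction and their side of the test or stayed within their range, 32 changed sign, 13 lost and 6 gained a call, and 26 counts or shares moved; causes were not tested unless the construction shows them. The higher Il10, Il10ra and Il10rb in macrophages, the higher Stat3 and Socs3 in neutrophils, the lower Il10ra in T cells and the lower Il10rb and Socs3 in cDC1 passed under every alternative run. No member differed between zones under any alternative, so sign changes there are of values that did not pass. Among the limits on Il10, 9 of its 26 cells had 1 UMI and 1 cell held 24.1% of its UMIs.

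Zone values (log2, PV over CV) that changed sign were, for Il10ra in T cells, -0.00147 with DESeq2 and -0.00551 with mixed barcodes assigned (an alternative added later). For Il10ra in macrophages they were -0.042 without the filter on low counts, -0.080 with stricter cell limits, -0.000404 without doublets and -0.010 with mixed barcodes assigned. Il10 in macrophages was 0.44 with the replicate block and 0.41 without the cell with most Il10. Leaving out each library gave -1.97 to 3.09 for Il10, -0.064 to 0.52 for Il10ra, -0.45 to 0.19 for Il10rb, -0.27 to 0.18 for Stat3 and -0.063 to 0.24 for Socs3 in all cells. In T cells it gave -0.30 to 0.36 for Il10ra and -0.19 to 0.55 for Stat3. In macrophages it gave -1.48 to 3.07 for Il10, -0.16 to 0.19 for Il10ra and -0.36 to 0.13 for Il10rb.

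Class values that changed were Stat3 in macrophages (0.0096 without the replicate block, 0.028 with mixed barcodes assigned, 0.14 with neutrophils left out of the other cells, -0.31 to 0.042 over libraries left out) and Socs3 in macrophages (-0.84, now past the test, with Leiden clusters, and 0.45 with neutrophils left out). The lower Socs3 in T cells passed under the other alternatives, but was -0.28 with neutrophils left out of the other cells, an alternative added later, and did not pass. Il10rb in macrophages outside the Kupffer gate did not pass at 0.75 without the filter, at 0.73 with stricter limits or at 0.62 to 1.02 over libraries left out, and in T cells at -0.62 with DESeq2; its range over libraries left out there was -0.88 to -0.42. Stat3 in cDC1 passed at -0.73 without the filter, -0.66 without the replicate block and -0.61 with shared barcodes kept, and in T cells at -0.48 with Leiden clusters, with -0.50 to -0.25 over libraries left out. DESeq2 did not call Il10 in neutrophils (-1.87) or B cells (-2.76), which had 0 UMIs. Over libraries left out, Il10ra in cDC1 ranged from -0.11 to 0.40, and Stat3 from -0.45 to 0.026 in B cells and from -1.33 to 0.036 in macrophages outside the gate.

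Zone calls numbered 9 in all cells and 2 in macrophages with DESeq2; without the filter they were 151 in all cells, 16 in T cells and 60 in macrophages. The replicate block gave 8 in macrophages and 0 in the other 2, and no member among them. Leaving out libraries gave 0 to 229 in all cells, 8 to 50 in T cells and 0 to 448 in macrophages; the highest in macrophages, without PV replicate 2, rests on a PV sum of 19 cells. Calls for macrophages over the rest were 3047 to 5136, and for neutrophils 2403 to 3346, over libraries left out. Thinning to 2000 UMIs, which leaves out shallower cells, took the mean share of macrophages with a UMI to 4.88% for Il10 (8.20% unthinned), 27.0% for Il10ra (52.5% unthinned), 36.7% for Il10rb (75.0%), 11.9% for Stat3 (34.2%) and 6.17% for Socs3 (13.7%), and of neutrophils to 37.8% for Socs3 (46.9%). With shared barcodes kept the macrophage shares were 4.79% for Il10, 33.03% for Il10ra, 43.7% for Il10rb, 19.9% for Stat3 and 8.002% for Socs3.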
